A study of Ovis aries with 8 samples.

Results

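The hunger neurons of the arcuate nucleus, which make agouti-related peptide (AGRP) and neuropeptide Y (NPY), were examined through 7 genes in the mediobasal hypothalamus of food-restricted and well-fed ewes. The genes were AGRP, NPY and CORT, which encode peptides, GHSR and ACVR1C, which encode receptors, and BSX and OTP, which encode homeobox transcription factors. They were taken by symbol from the 33609 genes listed, and all 7 were among the 18193 genes with enough reads to be tested. They were selected on their measured levels, with the difference between food-restricted and well-fed ewes already known. Their levels, fold changes and group differences of ratios are therefore given as a description, with no test.

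The animals were adult Ile-de-France ewes, 60 food-restricted and 60 well fed, 30 of each in each of 2 years. Equal amounts of RNA from 15 ewes were mixed into each of 4 sequencing pools per group, so n counts pools, and the spread is that between mixes of 15 ewes. The labels give neither the year of a pool nor a further treatment, and do not say whether a ewe entered more than 1 pool. How long and how strictly the ewes were restricted is not given in the sources used here.

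As background, neurons that make AGRP and NPY lie at the base of the hypothalamus and drive feeding when energy is short. AGRP blocks the melanocortin receptors MC3R and MC4R, on which peptides cut from the POMC precursor act to reduce feeding, and NPY acts through the Y receptors. The same neurons release the inhibitory transmitter GABA and, in rodents, respond to ghrelin from the stomach through GHSR.

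Total counts were 41261774 to 42964514 per food-restricted pool and 36192025 to 48125991 per well-fed pool. Levels are read counts relative to library size (CPM, scaled by TMM), and fold changes are food-restricted over well fed. The first principal component of log2 CPM, a single axis that summarises all tested genes, held 34.7% of the variance and placed pools of both groups on each side of 0. Food-restricted pools 1 and 2 and well-fed pools 3 and 4 lay below 0, while food-restricted pools 3 and 4 and well-fed pools 1 and 2 lay above 0. Since several of the 7 genes varied along this axis, the main results are also given within each side. Markers of the region were present in both groups, among them TBX3, an arcuate transcription factor, at 140 ± 7.81 CPM in the food-restricted pools, against 128 ± 14.8 CPM in the well-fed pools (SD over 4 pools each). The tissue also held pituitary transcripts, with 10 pituitary markers summing to 1276 to 1812 CPM in the food-restricted pools, against 1101 to 1985 CPM in well-fed pools. SST, a marker of somatostatin neurons, was listed at 0 in all 8 pools. Whether the tissue lacked SST RNA or its reads were not assigned to this gene was not tested.

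AGRP (gene ID 443269) was about 3 times as abundant in food-restricted ewes. It was at 193, 137, 146 and 144 CPM in food-restricted pools 1 to 4, against 38.2, 47.1, 60.7 and 56.9 CPM in well-fed pools 1 to 4. Every food-restricted pool thus lay above every well-fed pool, and food-restricted pool 1 stood above the other 3 of its group. The mean was 155 ± 25.9 CPM with food restriction, against 50.7 ± 10.1 CPM in the well fed (SD, n = 4 each). The log2 fold change was 1.61 (SE 0.17). These levels rest on 5717 to 8261 reads per food-restricted pool and 1739 to 2909 reads per well-fed pool. Counting error alone would give a coefficient of variation of 1.23% in food-restricted pools and 2.17% in well-fed pools, while the observed values were 16.7% with food restriction and 19.9% in the well fed. In bulk tissue, more AGRP neurons and more AGRP RNA per neuron cannot be told apart.

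In the RefSeq sheep assembly ARS-UI_Ramb_v3.0, AGRP overlaps the gene RIPOR1, whereas the remaining 6 genes overlap no other protein-coding gene. Whether reads in the shared stretch were counted for AGRP is not given in the sources used here. RIPOR1 was at 114 ± 15.8 CPM in the food-restricted pools, against 125 ± 12.3 CPM in the well-fed pools (SD, n = 4 each). The log2 fold change of RIPOR1 was -0.13 (SE 0.13).

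NPY (gene ID 443508), the second peptide of these neurons, was also higher, with a wider spread. It was at 201, 147, 90.5 and 125 CPM in food-restricted pools 1 to 4, against 29.6, 39.5, 84.9 and 85.1 CPM in well-fed pools 1 to 4. The groups did not overlap, but the lowest food-restricted pool and the 2 highest well-fed pools were close to each other. The means were 141 ± 46.4 CPM in the food-restricted pools, against 59.8 ± 29.4 CPM in the well-fed pools (SD, n = 4 each). The log2 fold change was 1.24 (SE 0.35). The coefficient of variation was 32.9% in food-restricted pools and 49.2% in well-fed pools, above those of AGRP in both groups.

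Of the 7 genes, 2 had groups that did not overlap, AGRP and NPY, both higher with food restriction. Over all tested genes, 0.495% had all food-restricted pools higher in this way and 1.10% had them all lower, a count that was 0 among the 7. AGRP was also the 1 of the 7 called over all genes, and the 1 gene called higher of 18193, or 0.00550% (edgeR quasi-likelihood test with Benjamini-Hochberg adjustment). Of the 7, limma voom and DESeq2 also called AGRP alone, where voom called 0.00550% and DESeq2 0.0214% of the genes they tested, in either direction. The edgeR call did not hold when any 1 of the 8 pools was left out, although the log2 fold change of AGRP then stayed between 1.49 and 1.73. These counts use the contrast that chose the genes and carry no further information about them.

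CORT (gene ID 100233238) encodes cortistatin, a peptide related to somatostatin that binds the somatostatin receptors. It was the scarcest of the 7 in reads, with 8, 60, 31 and 40 reads in food-restricted pools 1 to 4, against 22, 44, 43 and 24 reads in well-fed pools 1 to 4. Food-restricted pool 1 was the lowest and food-restricted pool 2 the highest of all 8 pools, and the 8 reads of pool 1 have a 95% exact Poisson interval of 3.45 to 15.8, which covers counting error only. CORT averaged 0.824 ± 0.518 CPM in the food-restricted pools, against 0.800 ± 0.285 CPM in the well-fed pools (SD, n = 4 each). Its log2 fold change was 0.04 (SE 0.59), the largest SE of the 7 genes.

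**Figure D1:**
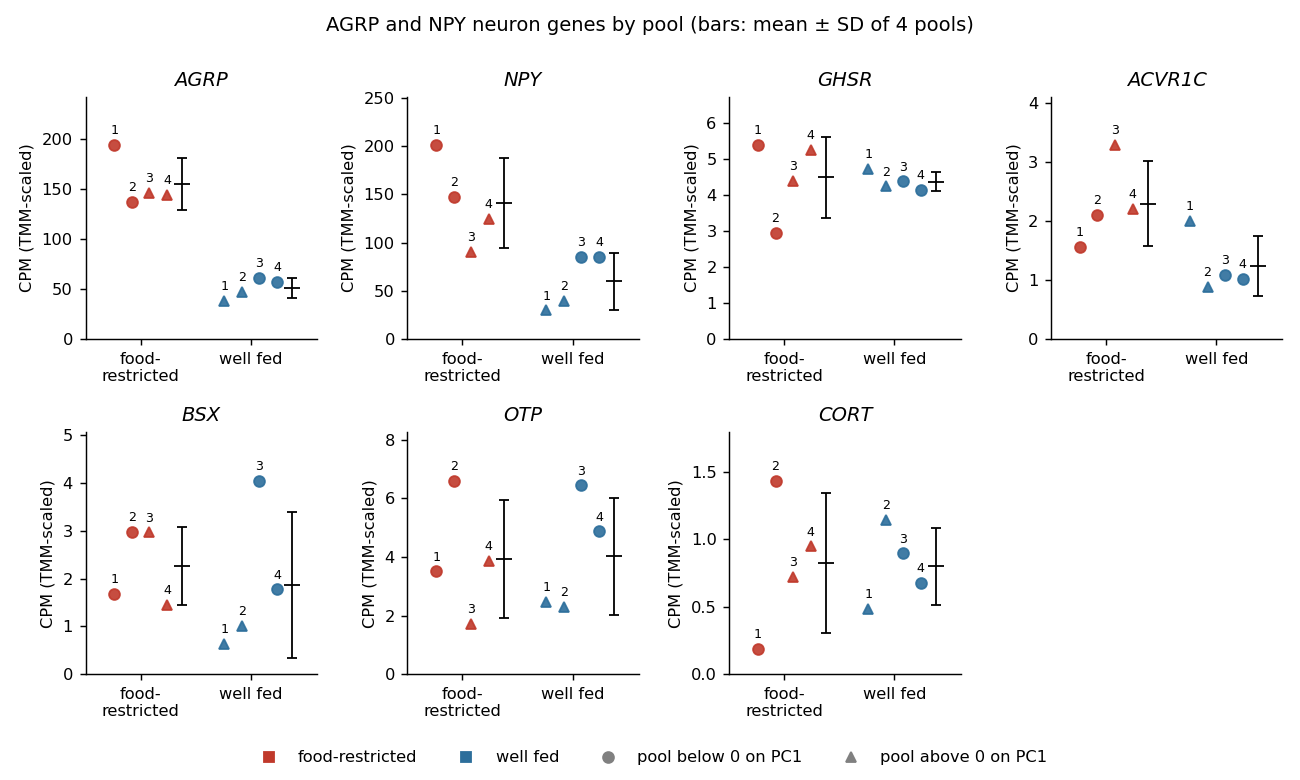
Level of each of the 7 genes in the 8 pools, in TMM-scaled CPM on an axis that starts at 0. Points are pools with their number, circles for pools below 0 and triangles for pools above 0 on the first principal component, and bars are the mean ± SD of 4 pools. AGRP and NPY have no overlap between food-restricted and well-fed pools, and the other 5 genes do.

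GHSR (gene ID 443238), the receptor through which ghrelin acts on these neurons, was at nearly the same mean level in both groups. It was at 5.39, 2.95, 4.39 and 5.24 CPM in food-restricted pools 1 to 4, against 4.72, 4.24, 4.38 and 4.14 CPM in well-fed pools 1 to 4. The food-restricted pools lay on both sides of the well-fed pools, whose coefficient of variation was 5.85%. The log2 fold change was 0.04 (SE 0.22). The ratio of GHSR to AGRP counts was 3.07-fold lower in food-restricted pools, without overlap between the groups.

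ACVR1C (gene ID 101111867), also called ALK7, is a type I receptor for ligands of the activin family. It was at 1.57, 2.11, 3.29 and 2.21 CPM in food-restricted pools 1 to 4, against 2.00, 0.884, 1.08 and 1.01 CPM in well-fed pools 1 to 4. In 3 food-restricted pools ACVR1C exceeded its highest well-fed level, while food-restricted pool 1 lay below well-fed pool 1, so the groups overlapped. The means were 2.29 ± 0.721 CPM in the food-restricted pools, against 1.25 ± 0.510 CPM in the well-fed pools (SD, n = 4 each). The log2 fold change was 0.88 (SE 0.37). Behind them stood 67 to 141 reads per food-restricted pool and 34 to 91 reads per well-fed pool, and the spread of 31.4% and 40.9% was about 3 times that of counting alone.

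BSX (gene ID 101118218) is a homeobox factor that, in mice, is needed for normal Agrp and Npy expression. It was at 1.69, 2.97, 2.96 and 1.45 CPM in food-restricted pools 1 to 4, against 0.637, 1.01, 4.04 and 1.77 CPM in well-fed pools 1 to 4. Well-fed pool 3 was the highest of all 8 pools and well-fed pool 1 the lowest. The log2 fold change of 0.28 had an SE of 0.53 and depended on single well-fed pools: it was 1.00 without well-fed pool 3 and -0.01 without well-fed pool 1.

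OTP (gene ID 101107527), a homeobox factor that in mice directs the formation of neurosecretory and arcuate neurons, did not separate the groups. It was at 3.51, 6.61, 1.73 and 3.87 CPM in food-restricted pools 1 to 4, against 2.48, 2.29, 6.44 and 4.87 CPM in well-fed pools 1 to 4. Within each group the highest pool was more than 2 times the lowest, and the log2 fold change was -0.03 (SE 0.44). For both homeobox genes the log2 fold change was thus within 1 SE of 0.

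**Figure D2:**
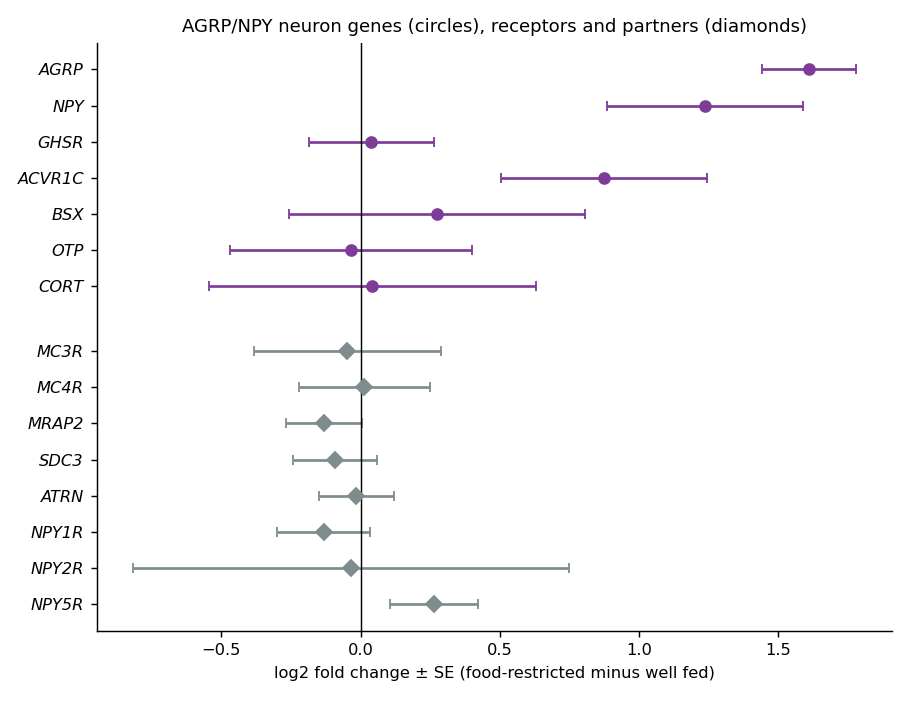
Log2 fold changes, food-restricted over well fed, with their SE, for the 7 genes (circles) and for 8 tested genes listed as receptors and partners (diamonds). AGRP lies at 1.61 and NPY at 1.24, while the receptors lie between -0.13 and 0.26.

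The ratio of NPY to AGRP reads within a pool does not depend on how libraries are scaled. Its absolute value depends on transcript length, which was not available, so only its differences between pools are read. The ratio was 1.04, 1.07, 0.621 and 0.870 in food-restricted pools 1 to 4, against 0.776, 0.838, 1.40 and 1.50 in well-fed pools 1 to 4. The 2 highest ratios were both in well-fed pools, but the groups overlapped. The geometric means were 0.881 in food-restricted pools and 1.08 in well-fed pools, a log2 difference of -0.29 (SE 0.31), about 1 SE from 0. This does not show that the 2 peptides changed by the same factor. On the side of the first component below 0, both food-restricted ratios (1.04 and 1.07) were below both well-fed ratios (1.40 and 1.50), and on the side above 0 the ratios overlapped.

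The remaining ratios to AGRP carry the group difference of AGRP itself, so they fall for any gene whose level is flat. OTP, CORT and GHSR, whose own log2 fold changes were -0.03, 0.04 and 0.04, were all lower relative to AGRP in food-restricted pools. The differences were 3.18-fold, 3.54-fold and 3.07-fold, without overlap. For OTP the groups nearly met, at 0.0484 in food-restricted pool 2 and 0.0489 in well-fed pool 2. ACVR1C and BSX were lower relative to AGRP by 1.65-fold and 2.11-fold, with overlap between the groups. NPY, at 1.23-fold lower, changed least relative to AGRP.

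Set against 11 general neuron markers (their geometric mean, with SNAP25, SYT1 and MAP2 among them), AGRP was higher in food-restricted pools by nearly as much as in CPM. The ratio was 0.507, 0.380, 0.355 and 0.394 in food-restricted pools 1 to 4, against 0.102, 0.131, 0.165 and 0.157 in well-fed pools 1 to 4. The groups did not overlap, and the ratio was 2.97-fold higher. NPY over the same markers was at 0.527, 0.408, 0.221 and 0.342 in food-restricted pools 1 to 4, against 0.0792, 0.110, 0.231 and 0.236 in well-fed pools 1 to 4. Food-restricted pool 3 lay below well-fed pools 3 and 4, so the separation seen in CPM was lost, while the ratio was 2.42-fold higher. The neuron markers themselves had a median log2 fold change of 0.07.

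**Figure D3:**
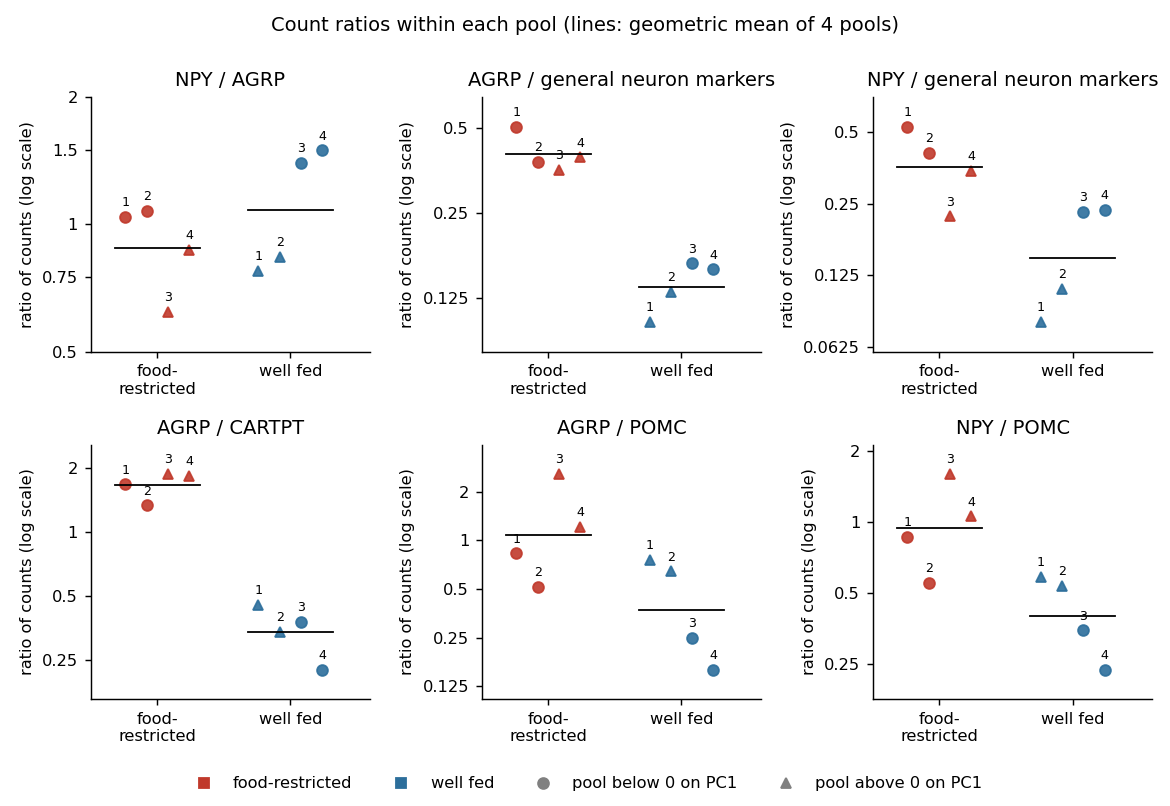
Ratios of read counts within each pool on log axes, with pool numbers; lines are geometric means of 4 pools, and circles and triangles mark pools below and above 0 on the first principal component. NPY over AGRP overlaps between the groups and is highest in well-fed pools 3 and 4. AGRP over CARTPT does not overlap, at 1.34 to 1.88 in food-restricted pools and 0.225 to 0.454 in well-fed pools. Absolute ratios depend on transcript length and are not read.

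AGRP and NPY were then set against other neuron genes of the region. The denominators were the 11 general markers, GAD1 and SLC32A1 of GABA neurons, CARTPT and POMC of the neurons that oppose hunger, TAC3 of kisspeptin neurons, GHRH of growth hormone control, TH of dopamine neurons and PMCH of the lateral hypothalamus. Over these 9 denominators AGRP was between 2.89-fold and 4.94-fold higher in food-restricted pools, with no overlap between the groups in 7 and overlap over POMC and TH. NPY was between 2.36-fold and 4.03-fold higher, with no overlap in 5. Each of these ratios carries the group difference of AGRP or NPY itself, so the counts of denominators are not repeated evidence. ACVR1C was higher over all 9, by 1.75-fold to 2.99-fold, and in no case without overlap. BSX had no steady direction: over the 8 pools its ratios averaged 1.37-fold to 2.35-fold higher, always with overlap, but in the pools below 0 they were lower with food restriction over 7 of the 9 denominators, and in the pools above 0 higher over all 9. OTP was higher over 3 of the 9, GHSR over 3 and CORT over 2.

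The widest separation was from CARTPT, the transcript of a peptide that reduces feeding. AGRP over CARTPT was 1.68, 1.34, 1.88 and 1.84 in food-restricted pools 1 to 4, against 0.454, 0.340, 0.376 and 0.225 in well-fed pools 1 to 4. The lowest food-restricted ratio was thus almost 3 times the highest well-fed ratio. NPY over CARTPT was 1.75, 1.44, 1.17 and 1.60 in food-restricted pools 1 to 4, against 0.352, 0.285, 0.527 and 0.337 in well-fed pools 1 to 4, again without overlap. NPY over CARTPT was 4.03-fold higher and AGRP over CARTPT 4.94-fold higher. CARTPT itself was at 93.2 ± 18.6 CPM in the food-restricted pools, against 159 ± 70.4 CPM in the well-fed pools (SD, n = 4 each), with overlap, and was not called over all genes (log2 fold change -0.77, SE 0.28). The size of the difference in AGRP over CARTPT was 5.15-fold in the pools below 0 and 4.73-fold in those above 0.

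The balance of AGRP to POMC was far less even. It was 0.831, 0.513, 2.57 and 1.22 in food-restricted pools 1 to 4, against 0.756, 0.642, 0.249 and 0.158 in well-fed pools 1 to 4. Food-restricted pool 2 lay below well-fed pools 1 and 2, although the geometric mean was 2.89-fold higher with food restriction. POMC itself spanned 56.7 to 267 CPM in the food-restricted pools, against 50.5 to 359 CPM in well-fed pools. The tissue also held pituitary transcripts, and how much of the POMC RNA came from arcuate neurons was not tested. Once pools were compared on the same side of the first principal component, AGRP over POMC was 3.29-fold higher below 0 and 2.54-fold higher above 0. NPY over POMC was 0.864, 0.551, 1.60 and 1.06 in food-restricted pools 1 to 4, against 0.587, 0.538, 0.348 and 0.237 in well-fed pools 1 to 4. Its groups overlapped by 1 pair of pools, and it was 2.40-fold higher below 0 and 2.31-fold higher above 0.

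**Figure D4:**
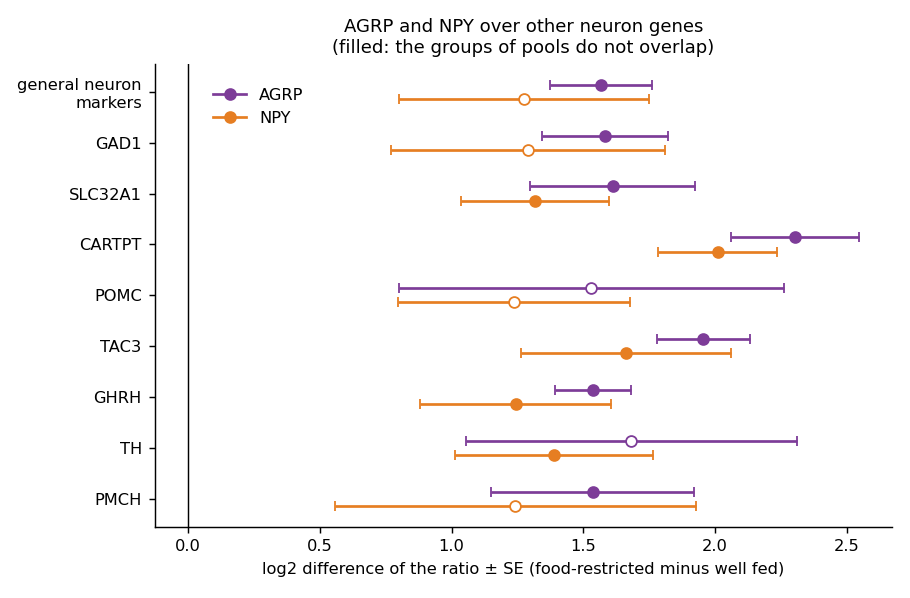
Log2 difference, food-restricted minus well fed, of the ratio of AGRP (purple) and NPY (orange) to each of 9 denominators, with the SE from 4 pools per group. Filled points have no overlap between the groups, 7 of 9 for AGRP and 5 of 9 for NPY, and both genes lie farthest from 0 over CARTPT.

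The 7 genes differed in how far they followed the first principal component. Within groups, log2 CPM correlated with a pool's score on this axis at r = -0.56 for AGRP, -0.87 for NPY and -0.94 for OTP, and at 0.59 for ACVR1C (8 pools, group means removed, a description since the axis is computed from the same libraries). Values like those of NPY and OTP were found for POMC, at -0.94, and for TH, the dopamine-synthesising enzyme, at -0.97. The GABA neuron markers did not share a direction, with SLC32A1 at -0.93 and GAD1, the GABA-synthesising enzyme, at 0.71. In pools below 0 relative to pools above 0, NPY was 1.62-fold higher among food-restricted pools and 2.48-fold higher among well-fed pools. AGRP was 1.12-fold and POMC 3.04-fold higher among food-restricted pools, and 1.38-fold and 4.86-fold higher among well-fed pools. The 1.12-fold of AGRP rested on food-restricted pool 1 alone, since pool 2, at 137 CPM, lay below pools 3 and 4, at 146 and 144 CPM. The effect of what sets this axis on the levels of NPY and OTP was not tested.

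The size of the group difference was also taken within each side of the axis. For AGRP and NPY its direction there is fixed, since their groups do not overlap over all pools, and only the size is described. AGRP was 2.77-fold higher with food restriction in the pools below 0 and 3.41-fold higher in the pools above 0. NPY was 2.02-fold higher below 0 and 3.11-fold higher above 0. ACVR1C was 1.70-fold and 1.99-fold higher in the same comparison. BSX went both ways, at 0.838-fold below 0 and 2.49-fold above 0, where food-restricted pools 3 and 4 (2.96 and 1.45 CPM) lay above well-fed pools 1 and 2 (0.637 and 1.01 CPM). Each side holds 2 pools of each group, and a difference between the sides was not tested.

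**Figure D5:**
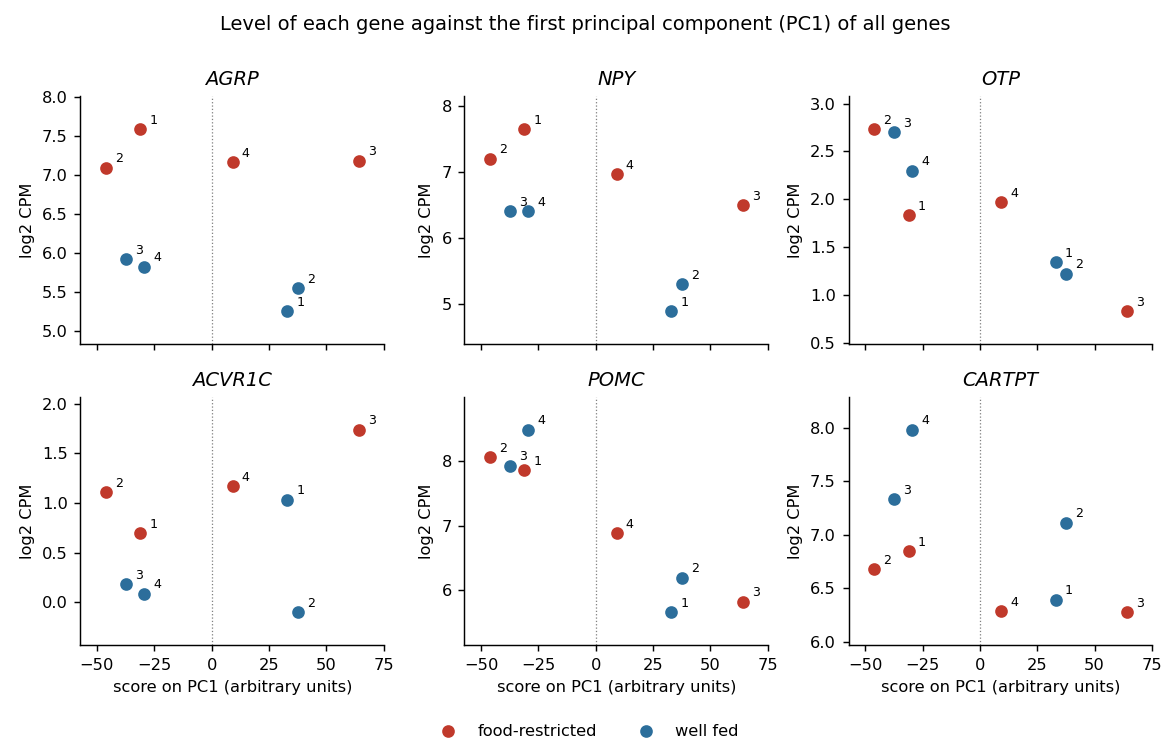
Log2 CPM of 4 of the genes and of POMC and CARTPT against the pool's score on the first principal component of all genes, with pool numbers. OTP and POMC fall along the axis in both groups, as NPY does, while AGRP in the food-restricted pools shows no such order.

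Within groups AGRP and NPY varied together across pools. The correlation of their log2 CPM over the 8 pools, with group means removed, was r = 0.88 (Spearman rho = 0.67, exact two-sided permutation p = 0.0278 for r). Among all 21 pairs of the 7 genes this was the highest, but after Benjamini-Hochberg adjustment over the 21 pairs it did not pass (exact permutation, adjusted p = 0.413), and no other pair did. With group means removed, food-restricted pool 1 and well-fed pool 3 lay farthest from the median of the 8 pools in AGRP. Without these 2 pools r was 0.80, while well-fed pool 1, the farthest from its own group mean, was kept. NPY was higher in the pools below 0 than in those above 0 in both groups, and AGRP was so among the well-fed pools, while each side holds too few pools for a correlation of its own. NPY and OTP had r = 0.77, and ACVR1C ran against both peptides, at -0.69 with AGRP and -0.71 with NPY. The adjusted p of these 3 pairs was between 0.413 and 0.452 (exact permutation).

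Over 12027 genes with a symbol and a mean of at least 5 CPM, the 5 closest to AGRP within groups were DUSP14 (r = 0.99), HSCB (0.94), PTS (0.93), CFAP97D2 (0.93) and BCL2L12 (0.93). NPY itself came after 27 genes, or 0.224% of them. The 5 closest to NPY were SEC61B (r = 0.99), C3H12orf57 (0.99), KCTD10 (0.98), AIMP2 (0.98) and RPS15 (0.98), and 845 genes (7.03%) were closer to NPY than AGRP was. With 8 pools many genes reach such values, and the lists were unstable: leaving out 1 pool kept between 1 and 3 of the 5 for AGRP and between 0 and 4 for NPY. The log2 fold changes of these 10 genes ranged from -0.17 to 0.49.

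The genes through which the peptides act were then counted. Of the 191 genes in 21 lists that surround the 7 genes, 169 were tested and 0 were called by edgeR over all genes, by DESeq2 or by limma voom, where edgeR had 0 higher and 7 lower at an unadjusted p under 0.05. Those 7 were CARTPT, TAC3, GLP1R, PCSK1, LAMP5 of forebrain neurons, DIO2 of tanycytes and HBB of red blood cells. CARTPT, TAC3, DIO2 and HBB were also named by abundance, and GLP1R, PCSK1 and LAMP5 after their values were seen. Over all tested genes a smaller share, 1.70%, had such a p in either direction, but the lists were written with earlier results of these data known. Of the 169, 85 were above and 84 below 0, with a median log2 fold change of 0.00, beside 0.01 over all genes.

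Of the receptors and partners, 0 of 8 tested were called, 2 were above and 6 below 0, and the median was -0.04. The melanocortin receptor MC4R, which AGRP blocks, was at 5.57 ± 1.34 CPM in the food-restricted pools, against 5.52 ± 1.29 CPM in the well-fed pools (SD, n = 4 each), and MC3R was at 3.09 ± 0.627 CPM and 3.19 ± 1.50 CPM in the same order. MRAP2, an accessory protein of MC4R, had a log2 fold change of -0.13 (SE 0.14). Among the NPY receptors, NPY5R was at 14.1 ± 2.22 CPM in the food-restricted pools, against 11.8 ± 1.40 CPM in the well-fed pools (0.26, SE 0.16), NPY1R was at -0.13 (SE 0.17) and the scarce NPY2R at -0.03 (SE 0.78). SDC3, which acts beside AGRP on melanocortin signalling in rodents, was at -0.09 (SE 0.15). ATRN, the remaining gene of this list, was at -0.01 (SE 0.13).

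Around the receptor genes, 0 of 14 tested genes of activin-type signalling were called, with 5 above and 9 below 0 and a median of -0.04. ACVR1B, a close relative of ACVR1C, was at 67.4 ± 1.02 CPM in the food-restricted pools, against 71.6 ± 5.89 CPM in well-fed pools, and SMAD2, which both receptors phosphorylate, had a log2 fold change of 0.04 (SE 0.10). Of the ghrelin and cortistatin genes, 0 of 4 tested were called (median 0.03), among them SSTR1 at 0.00 (SE 0.11) and SSTR2 at 0.06 (SE 0.13). Of 15 tested receptors for hormones and transmitters that reach these neurons, 0 were called, with 4 above and 11 below 0. GLP1R, the receptor of the gut hormone GLP-1, was at 17.9 ± 3.22 CPM in the food-restricted pools, against 22.8 ± 1.38 CPM in the well-fed pools (SD, n = 4 each) without overlap, and is named here after its values were seen.

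Regulators and release machinery were likewise uncalled. Of 9 tested factors that act on the AGRP and NPY genes in rodents, 0 were called (5 above and 4 below 0, median 0.01), and STAT3, which carries the leptin signal, had a log2 fold change of -0.25 (SE 0.16). Of 13 tested genes of arcuate identity, 0 were called, with 9 above and 4 below 0 and a median of 0.13. Its most abundant members were TBX3 (log2 fold change 0.13, SE 0.11), ISL1 (-0.02, SE 0.17) and NKX2-1 (0.16, SE 0.13). Of 6 GABA genes, 0 were called (median 0.03), and of 10 peptide-processing genes 0 were called, with 2 above and 8 below 0. PCSK1, a convertase that cuts peptide precursors, was at 301 ± 29.3 CPM in the food-restricted pools, against 364 ± 27.3 CPM in the well-fed pools (log2 fold change -0.28, SE 0.10), with overlap, and is also named after its values were seen.

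Among the 11 tested markers of other arcuate neurons, 0 were called, with 3 above and 8 below 0 (median -0.11). TAC3, the neurokinin B gene, was at 115 ± 8.78 CPM in the food-restricted pools, against 146 ± 23.6 CPM in the well-fed pools (SD, n = 4 each). TAC1 was at 0.16 (SE 0.12), PDYN at -0.21 (SE 0.25) and TH at -0.10 (SE 0.54). Markers of most other cells and areas overlapped between the groups in summed level. Oligodendrocyte markers, for example, summed to 3727 to 5226 CPM in the food-restricted pools, against 3653 to 5238 CPM in well-fed pools. An exception was the sum of 9 forebrain neuron markers, at 192 to 204 CPM in the food-restricted pools, against 210 to 238 CPM in well-fed pools. Of these 9, 5 were above and 4 below 0. The most abundant, NOS1, PPP1R1B and RELN, were at -0.23 (SE 0.12), -0.24 (SE 0.13) and 0.03 (SE 0.14). The other exception was the sum of 3 red blood cell markers, at 0.373 to 1.45 CPM and 1.61 to 4.13 CPM in the same order. This sum followed HBB, at 0 to 34 reads per food-restricted pool and 35 to 179 per well-fed pool. AHSP went the other way, with overlap, at 0.30 (SE 0.58). ALAS2 of the red cell list was at 0 in all pools. The median log2 fold change was 0.10 for oligodendrocyte, 0.07 for tanycyte and ependymal, 0.03 for astrocyte, 0.02 for microglial and -0.01 for endothelial markers. It was 0.28 for choroid plexus, 0.13 for adipose and -0.03 for pituitary markers, 0.03 for forebrain neurons and for neighbouring areas, and -0.86 for the 2 tested red blood cell markers. Of the 6 tanycyte and ependymal markers, 5 were above 0 and 1, DIO2, was below. DIO2 was at 62.0 ± 13.8 CPM in the food-restricted pools, against 93.7 ± 15.7 CPM in the well-fed pools, with overlap (log2 fold change -0.59, SE 0.17). VIM and CRYM of the same list were at 0.02 (SE 0.11) and 0.08 (SE 0.11). The part of these markers in the AGRP and NPY differences was not tested.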

How the data were processed

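RNA of mediobasal hypothalamus was extracted with TriReagent and sequenced as TruSeq stranded mRNA libraries, 8 pools of 15 ewes, per the labels' protocols. The authors deposited raw counts for each gene, in a column for each pool, per the file headers. Tools named in the submitters' processing notes, with no role or order, were featureCounts 2.0.0, TopHat2 2.1.1, SAMtools 1.9, Bowtie2 2.3.5.1, FastQC and bcl2fastq 2.20. Build, annotation, strand setting and handling of shared reads were not given in the sources used here, so overlapping genes are uncertain. No coordinates or sequences are printed.

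The tests used edgeR 4.0.16 under R 4.3.3: filterByExpr (minimum count 10, minimum total 15), TMM, and the quasi-likelihood F test with no covariate over all 18193 genes kept, with a threshold of 0.05 on the Benjamini-Hochberg adjusted p. The common biological coefficient of variation was 28.3%. The SE of a log2 fold change is its size divided by the square root of F. Ratios are of counts plus 0.5 within a pool, averaged on the log2 scale. Likeness used log2 CPM with a prior count of 2. Gene IDs found in the RefSeq table numbered 28100 (83.6%), used for names and overlaps only. Of the 191 listed genes, 8 had no row under their symbol.

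The genes, the lists and the rule for naming genes were chosen with earlier results of these data known. The rule covered all 7 genes, all receptors and partners, the 3 most abundant tested genes of a list (6 for other arcuate neurons), the ratio denominators and the 5 genes most like AGRP and NPY; other genes are examples or are said to be named after their values were seen. Between pools of the same group chi-square was 25.1 to 170 per degree of freedom, above sampling noise, and each is taken as a replicate as labelled. The p-values measure only the spread between these pools. Alternatives were 3 other scalings, 2 other filters, 2 blocks, pools left out, DESeq2 1.42.0 and limma 3.58.1 voom. Figures were drawn with matplotlib 3.10.9.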

Additional observations from a re-analysis of the deposited data

Results flagged for a closer look

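AGRP in food-restricted pool 1 stood apart from the other 3 pools of its group, at 193 CPM against 137, 146 and 144 CPM in pools 2 to 4. Its gap to the nearest pool was 0.843 of the range of the group, above the critical value of 0.829 for 4 samples (Dixon's test). Chance flags about 1 in 20 groups, and 24 groups were looked at with 1 flagged. Without this pool the log2 fold change of AGRP was 1.49.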

How the results depend on the processing

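The count of genes called higher, 1 of 18193 (AGRP), was 0 with the replicate number as a block, 0 without food-restricted pools 1 and 3, 0 with any single pool left out, and 2 (AGRP and NPY) when the pools' side on the first principal component was a block. The count called lower, 0 in the main analysis, was 4 with that side as a block (HSPA6, ARRDC2, ZBTB16 and FKBP5) and 4 with DESeq2 (HSPA6, ARRDC2, ZBTB16 and LOC114117986). The cause was not tested. Same-numbered pools deviated against each other (r between -0.42 and -0.21 after group means were removed). Each such pair also lay on opposite sides of the first principal component. These values therefore do not show whether equal numbers mark a pairing, which the labels do not give. The log2 difference of NPY to AGRP stayed below 0 under its 12 alternatives (-0.45 to -0.13 with single pools left out). Over 18 alternatives the log2 fold change of AGRP ranged from 1.47 to 1.73, NPY from 1.01 to 1.47, ACVR1C from 0.65 to 1.20, BSX from -0.01 to 1.00, OTP from -0.39 to 0.38 and GHSR from -0.09 to 0.21, and over 17 that of CORT from -0.35 to 0.58. The 378 counts of called list genes did not change, and 6 of 377 list medians moved beyond their spread. Levels were lowest for CORT, and next for ACVR1C and BSX, but in each the spread between pools exceeded counting error. For CORT it was 62.9% in food-restricted and 35.6% in well-fed pools, against 17.0% and 17.3% from counting.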
